A study of Mus musculus with 2 samples.

Results

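The genes of the interleukin-6 (IL-6) cytokine family were followed in ear skin cells of mice with IgE-dependent chronic allergic inflammation (IgE-CAI). The 9 genes were picked by symbol: the ligands Il6, Osm, Lif and Il11, the receptor chains Il6ra, Osmr, Lifr and Il6st, and the feedback inhibitor Socs3. All 9 were found among the 35208 gene rows of the deposited matrix, of which 34392 held at least 1 read in the kept cells. Ears of male BALB/c mice were used. The animals were wild-type (WT) or carried a disrupted chemokine receptor gene Ccr2 throughout the body (Ccr2-/-). All were sensitised with 300 µg of TNP-specific IgE, TNP being a hapten, and then had 10 µg of TNP coupled to ovalbumin (TNP-OVA) injected into the ear skin, and no unchallenged skin was analysed here. Cells were taken 3 or 5 days later. Each genotype and day gave 1 pool marked with its own hashtag antibody, so there were 4 pools and no replicate pools, and how many mice a pool held was not stated in the sources used here.

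Of 8953 barcodes, 7118 cells were kept. The pools held 1037 to 2347 cells and 68064673 to 162572556 reads. The values are reads and not molecules, so the 95% intervals given below (exact Poisson for levels, Clopper-Pearson for shares of cells) cover counting error only. Levels are CPM, the reads of a gene scaled to a fixed total of reads, from the reads summed over the cells of a type and pool. Cells were grouped by clustering without the 9 genes or their pathway genes, and clusters were called X-like from marker transcripts. This gave 16 named cell types and left 466 cells unnamed. Mo-Mac-like cells, that is monocytes and macrophages, numbered 483 and 451 in the WT pools of day 3 and day 5 and 131 and 90 in the Ccr2-/- pools. Neutrophil-like cells numbered 52 and 6 in WT and 406 and 792 in Ccr2-/- skin, and basophil-like cells 26 and 2 against 66 and 62. In Mo-Mac-like cells Ccr2 itself stood at 955 and 682 CPM in the WT pools and at 86.9 and 28.1 CPM in the Ccr2-/- pools, as the labels say. The source of the Ccr2 reads left in the Ccr2-/- pools was not tested.

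IL-6 family cytokines share the signalling chain gp130, encoded by Il6st, which is made by most cells. IL-6 first binds its own receptor, encoded by Il6ra, and interleukin-11 likewise binds a private alpha chain, whereas oncostatin M and leukemia inhibitory factor pair gp130 with the chains encoded by Osmr and Lifr. The joined chains activate Janus kinases and the transcription factor STAT3. Socs3 is one of the genes that STAT3 induces, and its product binds gp130 and ends the signal. In skin, fibroblasts and endothelial cells are known responders to oncostatin M, and myeloid cells are known sources of it.

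Il6, the gene of the founding ligand, was highest in basophil-like cells and next highest in stromal cells. Basophil-like cells held 7400 CPM in the WT day 3 pool (interval 7180 to 7620), 5520 CPM in the WT day 5 pool, 5760 CPM in the Ccr2-/- day 3 pool and 9180 CPM in the Ccr2-/- day 5 pool (9010 to 9340). The genotypes overlapped, and the WT day 5 value rested on 2 cells, 1 of which held 93.6% of the reads. A read of Il6 was found in 92.3%, 97.0% and 91.9% of the basophil-like cells of the other 3 pools. Over the pools the mean was 6960 ± 1700 CPM (SD, n = 4 pools) in basophil-like cells and 591 ± 132 CPM in fibroblast-like cells, and the lowest pool of the former was above the highest pool of the latter. The ranges of pericyte or smooth muscle-like cells (28.5 to 1050 CPM, 54 cells in all), fibroblast-like cells and blood endothelial-like cells (403 to 549 CPM) overlapped.

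In fibroblast-like cells Il6 stood at 654 CPM in WT day 3, 407 CPM in WT day 5, 710 CPM in Ccr2-/- day 3 and 592 CPM in Ccr2-/- day 5. The 2 genotypes overlapped, with a WT day 5 pool below the rest. Fibroblast-like cells held most Il6 reads in every pool, from 61.9% in WT day 3 to 80.1% in Ccr2-/- day 3. They made up 22.6% to 33.6% of the cells, at median depths of 70591 to 138163 reads per cell. In WT day 5 fibroblast-like and Mo-Mac-like cells held 26737967 and 26654253 reads of all genes, and 10886 and 3801 of Il6. Basophil-like cells held 2.55% to 15.9% of the Il6 reads. Mo-Mac-like cells stood at 113, 143, 118 and 113 CPM in the same order of pools, and 48.7% of these 1155 cells had a read. Saa3 stood at 102 to 220 CPM in Mo-Mac-like cells and at 857 to 8430 CPM in fibroblast-like cells. Cxcl5 stood at 28.5 to 44.3 CPM and at 417 to 2910 CPM. These 2 genes had a read in 77.4% to 83.3% and 67.4% to 71.8% of Mo-Mac-like cells per pool. A read alone thus does not show that a Mo-Mac-like cell made Il6, and the source of these reads was not tested. Mast cell-like cells held 783 and 279 CPM in the Ccr2-/- pools and 17.9 and 106 CPM in the WT pools, which had 10 cells each. The T cell-like value of 182 CPM in WT day 3 came for 84.0% from 1 cell, and the other 3 pools held 11.8 to 15.6 CPM. Neutrophil-like cells were near background, at 12.2 to 34.3 CPM, and after each cell was thinned to 10000 reads at most 10.9% of them had a read, against 92.7% to 100% of basophil-like cells.

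**Figure D1:**
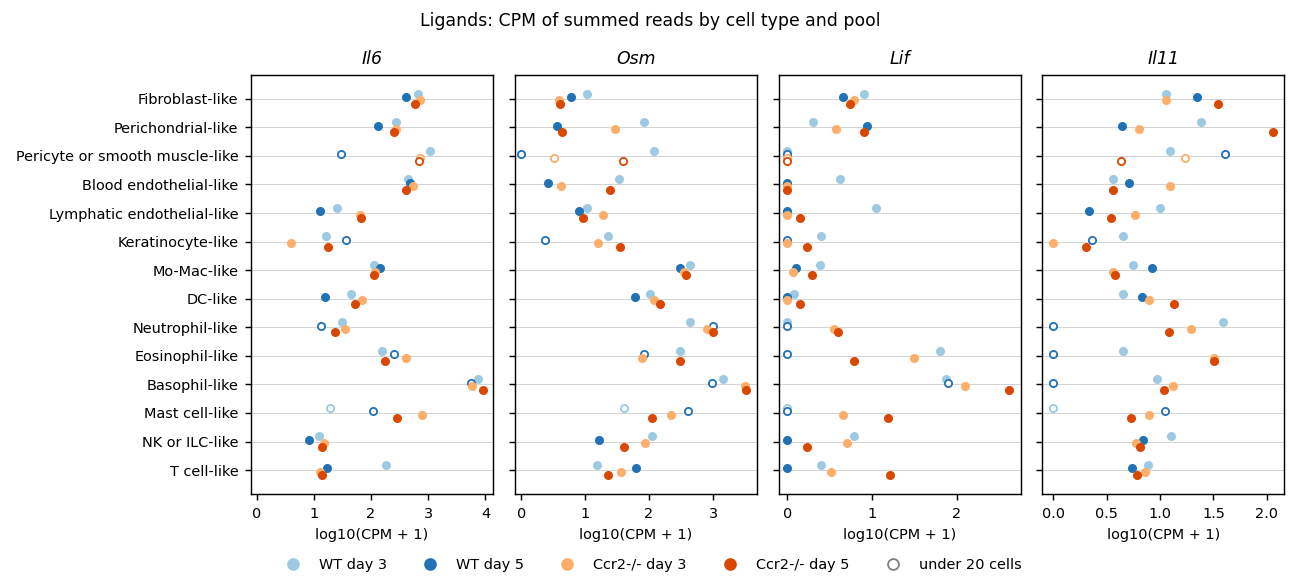
Levels of the 4 ligand genes, as log10 of CPM + 1 on the horizontal axis, in each cell type (rows) and pool (colours), with open points for fewer than 20 cells. Il6, Osm and Lif have their rightmost points in basophil-like cells, where Il6 lies between 5520 and 9180 CPM and Osm between 948 and 3220 CPM.

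Il6, Osm and Lif shared basophil-like cells as the cell type of highest level, so the promoters of the ligands and of Socs3 were read for short motifs. RefSeq promoters on GRCm38.p6 were at hand for 8 of the 9 genes (not Osm), and all 250 bases before the RefSeq start were searched on both strands for TGANTCA (bound by AP-1 factors), TTCNNNGAA (bound by STAT factors) and GGGANTTTC (part of the NF-kB site). TGANTCA and TTCNNNGAA read the same on both strands. TGANTCA was present in Il6, Lif and Il11 and in 6.75% of 32851 promoters, TTCNNNGAA only in Socs3 among the 8 genes and in 7.02% of promoters, and GGGANTTTC only in Il6 among the 8 and in 0.941%. None of these motifs was found in the 250 bases before the starts of Il6ra, Osmr, Lifr and Il6st. A match is a description of the letters and does not show binding. Of the windows holding a motif, the bases before the first annotated exon are printed 5′ to 3′, with the motifs in capitals, for Il6 (chr5:30012864-30013113, plus strand), Lif (chr11:4257318-4257556, plus strand), the inner start of Il11 (chr7:4778142-4778391, minus strand) and Socs3 (chr11:117969452-117969616, minus strand).
Il6: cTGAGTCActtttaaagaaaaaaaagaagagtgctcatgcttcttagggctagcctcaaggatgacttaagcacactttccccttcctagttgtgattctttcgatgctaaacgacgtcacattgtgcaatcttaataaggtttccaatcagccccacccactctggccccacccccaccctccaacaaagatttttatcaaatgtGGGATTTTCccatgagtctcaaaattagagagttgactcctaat
Lif: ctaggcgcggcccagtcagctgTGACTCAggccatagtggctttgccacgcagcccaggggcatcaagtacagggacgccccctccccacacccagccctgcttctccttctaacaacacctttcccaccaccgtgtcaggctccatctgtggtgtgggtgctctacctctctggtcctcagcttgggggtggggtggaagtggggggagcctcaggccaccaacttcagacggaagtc
Il11: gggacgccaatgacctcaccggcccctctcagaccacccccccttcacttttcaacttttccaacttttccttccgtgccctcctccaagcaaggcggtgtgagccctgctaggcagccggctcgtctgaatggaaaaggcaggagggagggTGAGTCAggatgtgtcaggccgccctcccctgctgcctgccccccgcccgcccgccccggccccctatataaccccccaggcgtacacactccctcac
Socs3: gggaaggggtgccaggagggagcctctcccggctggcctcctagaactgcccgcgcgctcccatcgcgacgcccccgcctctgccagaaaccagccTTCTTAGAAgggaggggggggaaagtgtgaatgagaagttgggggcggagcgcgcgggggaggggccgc
Distances count from the RefSeq start, which follows directly on the printed bases in Il6 and Il11 and lies 11 bases beyond them in Lif and 85 in Socs3. The first base of TGANTCA lay 249 bases before that start in Il6, 228 before it in Lif and 98 before it in Il11, and GGGANTTTC began 44 bases before the start of Il6. In Socs3 TTCNNNGAA began 154 bases before the RefSeq start. The genes of oncostatin M and leukemia inhibitory factor lie near each other on one strand, with Osm at chr11:4236420-4241026 and Lif at chr11:4257557-4272514 (GRCm38, GENCODE M21).

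Osm, the gene of oncostatin M, was a gene of myeloid cells. Basophil-like cells held 1430 CPM in WT day 3, 948 CPM in WT day 5 (2 cells), 3180 CPM in Ccr2-/- day 3 and 3220 CPM in Ccr2-/- day 5. Both Ccr2-/- pools lay above both WT pools, with a mean log2 ratio of 1.46 ± 0.43 (SD of the 2 days). Permuting the 4 pools exactly, two-sided, gave p = 0.33, the smallest value that this design allows. The ratio was 0.39 when each cell was weighted alike and 0.38 when cells were thinned to 10000 reads. Fibroblast markers summed to 16900 and 1000 CPM in these WT basophil-like cells and to 6820 and 1050 CPM in the Ccr2-/- ones. Mo-Mac markers summed to 559 and 3280 CPM in WT against 173 and 107 CPM, and basophil markers to 9070 and 2800 against 13200 and 15300 CPM. The basophil marker Mcpt8 was read in 1 of the 2 WT day 5 cells. The part of these differences in the result was not tested.

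Neutrophil-like cells held 436 CPM of Osm in WT day 3, 990 CPM in WT day 5 (6 cells), 806 CPM in Ccr2-/- day 3 and 993 CPM in Ccr2-/- day 5. The genotypes overlapped. Mo-Mac-like cells held 436, 302, 344 and 380 CPM in the same order, with a mean log2 ratio of -0.01 ± 0.47. Their range did not reach the Osm range of basophil-like cells, and overlapped that of neutrophil-like cells. Thinned to 10000 reads, 38.9% to 66.7% of neutrophil-like cells and 47.7% to 61.0% of Mo-Mac-like cells held an Osm read. Fibroblast-like cells held 2.86 to 9.72 CPM. A read of Osm was found in 17.9% to 26.9% of them at median depths of 70591 to 138163 reads per cell, but in only 1.95% to 4.55% after thinning, which serves as the background for this gene.

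Most basophil-like cells held reads of both Il6 and Osm, and since each gene was read in most of them, a large overlap follows from that alone. Of 156 such cells, 136 had reads of both genes, 11 of Il6 alone, 6 of Osm alone and 3 of neither. Lif reads were found in 31 of them, 26 of which held all 3 ligands. In mast cell-like cells 48 of 113 had reads of both Il6 and Osm. Neutrophil-like cells differed, with 519 of 1256 cells holding Osm without Il6 and 83 holding both, and in fibroblast-like cells 1125 of 1908 held Il6 without Osm. These counts depend on how often each gene was read at all, and no association between the genes was tested. They also depend on the depth of each cell, which had a median of 8406.5 to 11792.5 reads over the pools in neutrophil-like cells.

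Lif, the gene of leukemia inhibitory factor, was low in most cells. Basophil-like cells stood at 73.7 CPM in WT day 3, 77.9 CPM in WT day 5, 126 CPM in Ccr2-/- day 3 and 419 CPM in Ccr2-/- day 5. Both Ccr2-/- pools were higher, with a mean log2 ratio of 1.59 ± 1.16 (permutation p = 0.33), but these values rested on 44, 6, 197 and 549 reads, and 1 cell held 43.7% of the reads of the highest pool. Fibroblast-like cells stood at 3.55 to 7.03 CPM, with overlapping genotypes. They nevertheless held 60.8%, 70.4%, 65.9% and 34.9% of the Lif reads of the 4 pools.

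Il11, the gene of interleukin-11, had its highest mean in perichondrial-like cells, where 1 cell decided the highest value. The values there were 23.4 CPM in WT day 3, 3.44 CPM in WT day 5, 5.31 CPM in Ccr2-/- day 3 and 114 CPM in Ccr2-/- day 5, and 92.9% of the reads of the last pool came from 1 cell. Fibroblast-like cells held 10.3, 21.3, 10.4 and 33.8 CPM in the same order, so that in both genotypes day 5 was above day 3 and the genotypes overlapped. They held 46.1% to 77.5% of the Il11 reads. Thinned to 10000 reads, 7.10% to 9.78% of fibroblast-like cells had a read of Il11.

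Il6ra, the gene of the IL-6 binding chain, had its highest mean levels in neutrophil-like, dendritic cell-like and Mo-Mac-like cells. Neutrophil-like cells held 466 CPM in WT day 3, 159 CPM in WT day 5 (13 reads in 6 cells), 260 CPM in Ccr2-/- day 3 and 297 CPM in Ccr2-/- day 5. Dendritic cell-like (DC-like) cells held 220, 188, 182 and 163 CPM, and Mo-Mac-like cells held 204, 217, 114 and 123 CPM. The ranges of these 3 cell types overlapped. In Mo-Mac-like cells both WT pools were close to each other and above both Ccr2-/- pools, a mean log2 ratio of -0.83 ± 0.02. The share of Mo-Mac-like cells with a read, thinned to 10000 reads, was 53.9% and 58.2% in WT and 39.2% and 44.0% in Ccr2-/- skin. Fibroblast-like cells were lower, at 36.4 and 52.7 CPM in WT against 30.5 and 25.5 CPM in Ccr2-/- skin.

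**Figure D2:**
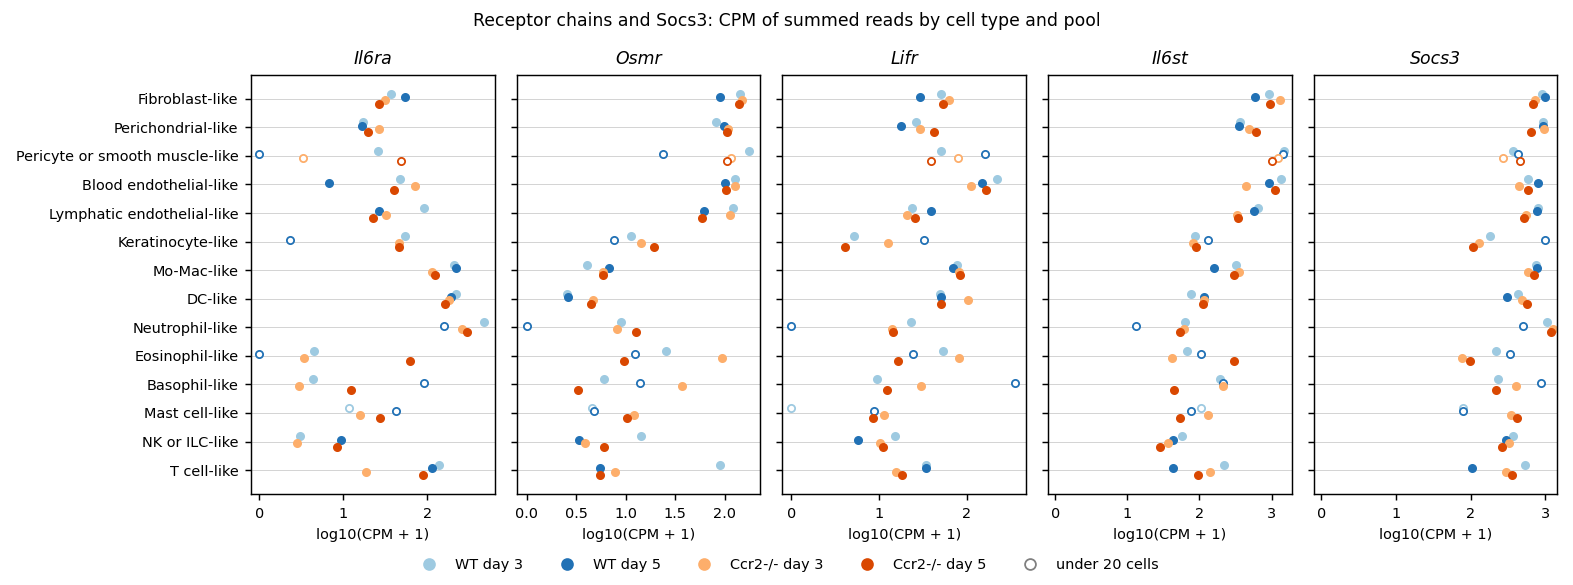
Levels of the receptor chains and Socs3, as log10 of CPM + 1 on the horizontal axis, in each cell type (rows) and pool (colours), with open points for fewer than 20 cells. Osmr lies at 87.6 to 146 CPM in fibroblast-like cells and at 3.08 to 5.78 CPM in Mo-Mac-like cells, whereas Il6ra lies at 114 to 217 CPM in Mo-Mac-like cells.

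Osmr, the gene of the oncostatin M receptor chain, was higher in stromal and endothelial cells than in the 3 cell types that led for Il6ra. Fibroblast-like cells held 141 CPM in WT day 3, 87.6 CPM in WT day 5, 146 CPM in Ccr2-/- day 3 and 136 CPM in Ccr2-/- day 5, with overlapping genotypes. Blood endothelial-like cells (98.5 to 125 CPM), perichondrial-like cells (79.4 to 106 CPM) and lymphatic endothelial-like cells (58.2 to 119 CPM) overlapped with them. Mo-Mac-like cells held 3.08 to 5.78 CPM, DC-like cells 1.53 to 3.63 CPM and neutrophil-like cells 0 to 11.7 CPM. Fibroblast-like cells held 72.9% to 87.5% of all Osmr reads. The cells that held most Osm reads, Mo-Mac-like, neutrophil-like and basophil-like cells, held few reads of its receptor chain, and across 47 sums of cell type and pool the log2 levels of Osm and Osmr had a Pearson r of -0.596. Il6ra and Osmr had an r of -0.238 over the same sums. Both values describe sums that share 4 pools and are given without a p.

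Lifr, the gene of the leukemia inhibitory factor receptor chain, had its highest mean in blood endothelial-like cells, at 221, 146, 111 and 165 CPM in the order of pools above. The genotypes overlapped. Mo-Mac-like cells held 69.1 to 82.9 CPM and fibroblast-like cells 49.4 and 28.3 CPM in WT against 61.3 and 52.4 CPM in Ccr2-/- skin.

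Il6st, the gene of gp130, was highest in stromal and endothelial cells. Pericyte or smooth muscle-like cells held 1500, 1450, 1230 and 996 CPM, of which the WT day 5 value rested on 3 cells. Fibroblast-like cells held 917 CPM in WT day 3, 590 CPM in WT day 5, 1310 CPM in Ccr2-/- day 3 and 951 CPM in Ccr2-/- day 5, and blood endothelial-like cells 1350, 921, 436 and 1110 CPM. The ranges of these 3 cell types overlapped. Mo-Mac-like cells were lower, at 157 to 353 CPM, and neutrophil-like cells lower still, at 12.2 to 61.8 CPM. At 10000 reads per cell 82.4% to 95.1% of fibroblast-like cells had a read of Il6st, against 47.9% to 76.7% of Mo-Mac-like cells and at most 19.1% of neutrophil-like cells.

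Within the blood endothelial-like cells, Il6st and Lifr were unevenly spread. The cluster led by the adhesion genes Sele and Selp held 1790, 1700, 532 and 2130 CPM of Il6st, and the cluster led by the capillary genes Gpihbp1 and Timp4, with haemoglobin transcripts on top, held 361, 285, 368 and 414 CPM. Lifr likewise stood at 198 to 286 CPM in the former and at 49.0 to 82.7 CPM in the latter. The ranges of the clusters did not overlap for either gene. Each cluster had 12 to 35 cells per pool, and clusters were formed on the same cells, so this is a description.

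Socs3, the feedback inhibitor, was read in stromal cells and leukocytes alike. Neutrophil-like cells held 1040, 501, 1260 and 1180 CPM, perichondrial-like cells 921, 928, 950 and 633 CPM, fibroblast-like cells 890, 998, 729 and 676 CPM, and Mo-Mac-like cells 759, 766, 589 and 713 CPM. Their ranges overlapped. DC-like cells held 310 to 559 CPM and eosinophil-like cells 75.5 to 335 CPM. Socs3 reads were thus present in cell types where Osmr stood above Il6ra, and in cell types with the opposite order. At 10000 reads per cell a read of Socs3 was found in 84.7% to 93.3% of fibroblast-like cells, 75.0% to 85.7% of Mo-Mac-like cells and 66.7% to 75.4% of neutrophil-like cells.

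Taking all cells of a pool together, Il6, Lif, Il6st and Osmr were higher and Osm, Il6ra and Socs3 lower in both Ccr2-/- pools than in both WT pools, while Il11 and Lifr overlapped. The 4 higher genes stand against 28.5% of all genes with a mean of at least 1 CPM and the 3 lower ones against 33.8%. An exact permutation of the 4 pools gave p = 0.33 for each of these 7 genes, which is the smallest p that it can give. Il6 stood at 404 and 245 CPM in WT against 607 and 510 CPM in Ccr2-/- skin, Il6st at 596 and 372 against 997 and 728 CPM, Osmr at 73.9 and 46.1 against 114 and 101 CPM, Il6ra at 101 and 122 against 43.5 and 51.2 CPM, and Osm at 166 and 133 against 89.9 and 116 CPM. Lif stood at 4.41 and 1.98 against 5.40 and 7.86 CPM and Socs3 at 745 and 820 against 702 and 656 CPM. In such sums more cells of a type and more reads per cell cannot be told apart. The cells that held the Osm reads also differed between the genotypes. Mo-Mac-like cells held 79.0% and 89.0% of the Osm reads in WT skin and 25.3% and 15.8% in Ccr2-/- skin. Neutrophil-like cells held 1.47% and 0.895% in WT and 25.2% and 48.4% in Ccr2-/- skin, and basophil-like cells 5.74% and 0.807% against 34.1% and 24.5%. Of the Il6ra reads, Mo-Mac-like cells held 61.0% and 69.8% in WT and 17.2% and 11.6% in Ccr2-/- skin. Among all cells, Mo-Mac-like ones accounted for 31.3% and 43.5% in WT and 5.98% and 3.83% in Ccr2-/- pools, and neutrophil-like ones for 3.37% and 0.579% against 18.5% and 33.7%.

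**Figure D3:**
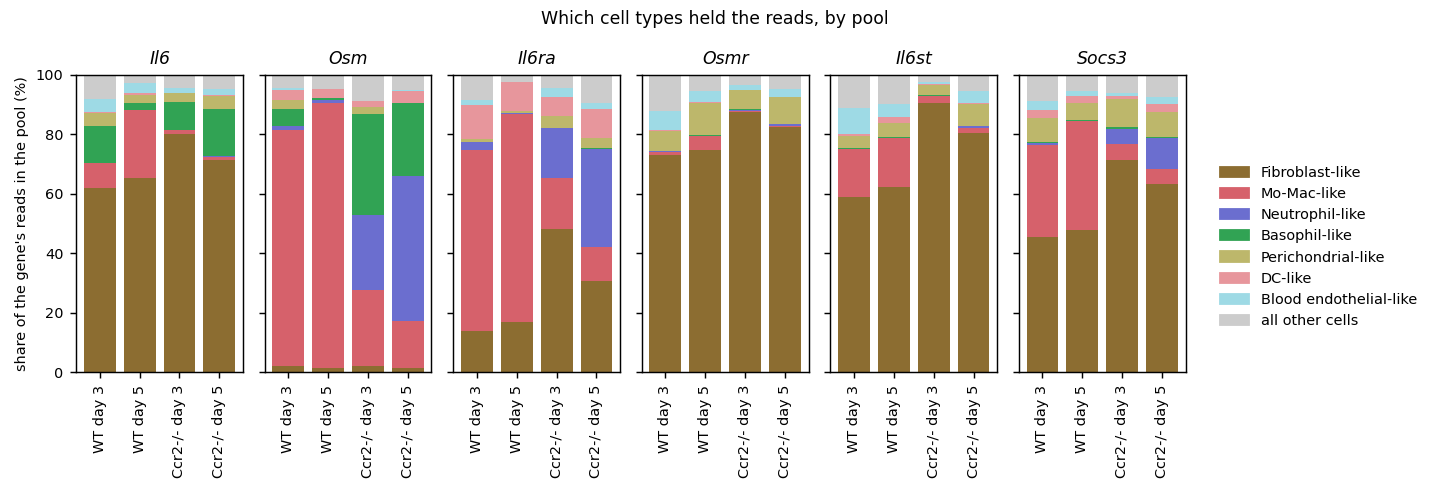
Share of each gene's reads held by each cell type (stacked, in % of the reads of that gene in the pool) for 6 genes and the 4 pools. For Osm the Mo-Mac-like part falls from 79.0% and 89.0% in the WT pools to 25.3% and 15.8% in the Ccr2-/- pools, where neutrophil-like and basophil-like cells take its place, whereas Osmr stays with fibroblast-like cells in all pools.

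The genotypes were then compared within each cell type by edgeR's quasi-likelihood test on summed reads, with day as a covariate and p adjusted over all genes of the cell type (Benjamini-Hochberg, threshold 0.05). This was possible in the 8 cell types with at least 20 cells in every pool, which leaves out neutrophil-like, basophil-like and mast cell-like cells. None of the 9 genes was called in any of them. Few genes were called at all, so this says little about the 9 genes. The share of genes called was 0.595% in Mo-Mac-like cells (98 of 16457), 0.0809% in blood endothelial-like cells (10 of 12358) and 0% in fibroblast-like, DC-like, lymphatic endothelial-like, NK or ILC-like, perichondrial-like and T cell-like cells. In the first 5 of those 6 cell types 3980, 945, 606, 632 and 1491 genes had an unadjusted p under 0.05, as had 3.03% of the 10310 genes tested in T cell-like cells, and DESeq2 called 1551, 88, 53, 25, 157 and 21 genes. The pools of the 2 days stood in for replicates and left 1 residual degree of freedom.

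In fibroblast-like cells the smallest p of the 9 genes belonged to Il6st, with a log2 ratio of Ccr2-/- to WT of 0.61 ± 0.07 (SE, edgeR adjusted p = 0.115). Lifr had the same ratio with a larger error, 0.61 ± 0.17 (adjusted p = 0.178). Socs3 stood at -0.41 ± 0.10 (adjusted p = 0.158), Il6ra at -0.64 ± 0.23 (adjusted p = 0.249) and Osm at -1.25 ± 0.34 (adjusted p = 0.177). Il6 and Osmr stood at 0.34 ± 0.12 and 0.35 ± 0.16 (adjusted p = 0.233 and 0.328). In plain CPM, 2 of the 9 genes, Lifr and Il6st, had both Ccr2-/- pools above both WT pools, against 27.9% of all genes with a mean of at least 1 CPM, and 3, Osm, Il6ra and Socs3, had both below, against 28.4%. DESeq2 called Il6st (adjusted p = 0.00062), Lifr (0.031) and Osm (0.0488). Mo-Mac markers summed to 204 and 263 CPM in the WT fibroblast-like cells and to 139 and 132 CPM in the Ccr2-/- ones, with all 7 markers read, and their part in the Osm and Il6ra values was not tested.

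In Mo-Mac-like cells Il6ra had the smallest p, with a log2 ratio of -0.78 ± 0.17 (edgeR adjusted p = 0.112), and DESeq2 called it (adjusted p = 0.0308). Il6st stood at 0.59 ± 0.22 (adjusted p = 0.26) and passed only without the WT day 3 pool (log2 ratio 1.11, adjusted p = 0.0448). Osm and Il6 stood at 0.04 ± 0.20 and -0.09 ± 0.19. In CPM, 1 gene, Lifr, was higher in both Ccr2-/- pools (background 21.9%) and 3, Il11, Il6ra and Socs3, were lower (26.4%), of 8 genes with at least 1 CPM. Mo-Mac markers themselves summed to 8910 and 9090 CPM in WT and to 5490 and 6720 CPM in Ccr2-/- cells, and fibroblast markers to 1920 and 3040 against 1570 and 937 CPM, and their part in the Il6ra value was not tested.

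**Figure D4:**
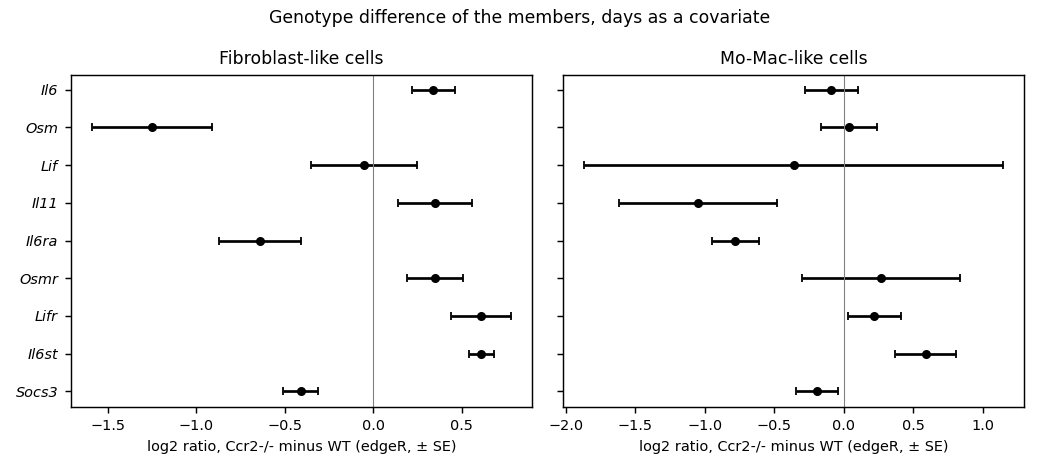
Log2 ratio of Ccr2-/- to WT (horizontal axis, points, with bars for the SE from edgeR) of the 9 genes in fibroblast-like and Mo-Mac-like cells. The Il6st point of fibroblast-like cells lies at 0.61 ± 0.07 and the Il6ra point of Mo-Mac-like cells at -0.78 ± 0.17, and none of the points passed the adjusted threshold.

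In DC-like cells 5 of 8 genes, Il6, Osm, Il11, Osmr and Socs3, had both Ccr2-/- pools above both WT pools (background 17.4%), and Il6ra had both below (20.9%). In perichondrial-like cells Il6ra, Osmr, Lifr and Il6st were higher in both Ccr2-/- pools (21.9%), and none was lower (21.3%). In blood endothelial-like cells none of 8 genes was higher (17.6%) or lower (17.0%) in both. Lymphatic endothelial-like cells had 1 of 9 genes higher (22.6%) and 2 lower (13.4%). For NK or ILC-like cells the counts were 1 higher (20.7%) and 2 lower (17.1%), and for T cell-like cells 1 higher (19.7%) and 3 lower (13.0%). Of these DC-like genes, Osm stood at 104 and 59.6 CPM in WT against 118 and 145 CPM in Ccr2-/- skin, Socs3 at 430 and 310 against 479 and 559 CPM, and Osmr was under 4 CPM in each pool (highest 3.63 CPM).

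The fibroblast-like cells fell into 3 clusters. One had Saa3, Cxcl5 and Reg3g among its leading genes, which are known from acute inflammation. One was led by Inmt and Dpt, genes of dermal fibroblasts, and a small one by Coch. The Coch cluster had 30 to 65 cells per pool and a median depth of only 18890.5 reads per cell. At Leiden resolution 2 its leading genes Coch and Cd46 fell to separate clusters, of 198 and 232 cells. The Saa3 Cxcl5 cluster made up 29.9% and 20.1% of WT fibroblast-like cells and 60.6% and 63.3% of Ccr2-/- ones, and its median depth was 187244 reads per cell against 72867 in the Inmt Dpt cluster. Osmr was higher in the Saa3 Cxcl5 cluster in every pool, at 131 to 192 CPM against 52.2 to 83.6 CPM, and so was Lifr, at 38.1 to 69.9 against 21.3 to 28.9 CPM. Socs3 was lower there, at 617 to 806 against 950 to 1260 CPM, as was Il6ra, at 22.6 to 34.8 against 42.3 to 69.6 CPM. The ranges did not overlap. These cells had been clustered on other genes of the same cells, so the differences between clusters are given without a test.

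Within the clusters the genotype differences were smaller for some genes. The log2 ratio of Socs3 was -0.42 ± 0.19 over all fibroblast-like cells, -0.19 in the Saa3 Cxcl5 cluster, -0.23 in the Inmt Dpt cluster and 0.20 in the small Coch cluster. That of Lifr was 0.59 over all and 0.36, 0.07 and -0.13 in these clusters. That of Il6st was 0.60 over all, 0.32 in the Saa3 Cxcl5 cluster, where the genotypes overlapped, 0.72 in the Coch cluster and 0.76 in the Inmt Dpt cluster, where it stood at 585 and 472 CPM in WT against 1040 and 766 CPM in Ccr2-/- cells. That of Il6 was 0.33 over all, 0.19 in the Saa3 Cxcl5 cluster, 0.44 in the Inmt Dpt cluster and 1.11 in the Coch cluster. Il6 stood at 122 and 133 CPM in WT against 280 and 272 CPM in Ccr2-/- cells of the Coch cluster. In the Inmt Dpt cluster Il6 stood at 361 and 431 CPM in WT against 635 and 451 CPM in Ccr2-/- cells, and Il11 at 5.32 and 5.07 against 9.36 and 10.9 CPM. In the Saa3 Cxcl5 cluster Il11 differed by day, at 13.0 and 10.7 CPM on day 3 and at 42.3 and 38.3 CPM on day 5 in WT and Ccr2-/- skin. The share of cells in each cluster and the levels within it thus both differed between the pools.

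**Figure D5:**
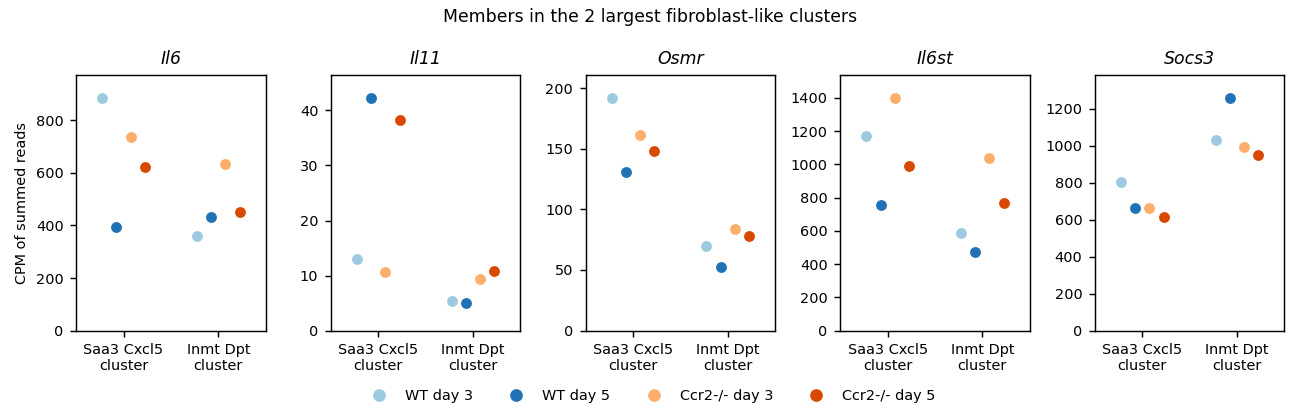
Levels of 5 genes (CPM of summed reads, vertical axis from 0) in the 2 largest fibroblast-like clusters, with 1 point per pool. Osmr is higher (131 to 192 CPM) and Socs3 lower (617 to 806 CPM) in the Saa3 Cxcl5 cluster than in the Inmt Dpt cluster (52.2 to 83.6 and 950 to 1260 CPM), and Il6st in the Inmt Dpt cluster has both Ccr2-/- points above both WT points.

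The Mo-Mac-like cells formed a cluster with Arg1, Mmp13 and Chil3 among its leading genes and one with C1qa, Cd209b and Folr2. Of these, Cd209b and Folr2 are known from tissue-resident macrophages. Finer clustering (Leiden resolution 2) gave C1qb as a leading gene of a cluster of 307 cells with Retnla and Trem2, and of one of 241 cells with Cd209b and Folr2. Arg1 and Mmp13 likewise fell to separate clusters, of 401 and 230 cells. The genotypes were not compared in these finer clusters. The Arg1 cluster held 362 of 483 and 140 of 451 Mo-Mac-like cells of the WT pools of day 3 and day 5, and 56 of 131 and 44 of 90 of those of the Ccr2-/- pools. Il6ra was lower in both Ccr2-/- pools of both clusters, at 209 and 200 CPM in WT against 130 and 95.5 CPM in the Arg1 cluster and at 191 and 222 against 106 and 139 CPM in the C1qa cluster. Il6 differed in opposite directions. It stood at 98.5 and 91.0 CPM in WT against 307 and 184 CPM in Ccr2-/- cells of the Arg1 cluster, and at 153 and 157 against 27.9 and 70.8 CPM in the C1qa cluster. In the 4 pools 1 cell held 12.7% to 44.7% of the Il6 reads of the Arg1 cluster and 8.48% to 53.6% of those of the C1qa cluster, and the difference between clusters was not tested. Osm overlapped between the genotypes in the Arg1 cluster and stood at 280 and 300 CPM in WT against 303 and 379 CPM in Ccr2-/- cells of the C1qa cluster. Lifr was lower in both Ccr2-/- pools of the Arg1 cluster, at 61.0 and 47.6 against 20.2 and 24.1 CPM. In the C1qa cluster it overlapped, at 115 and 75.2 against 109 and 117 CPM, with a mean log2 ratio of 0.28 ± 0.51. Over all Mo-Mac-like cells that ratio was 0.17 ± 0.12, with both Ccr2-/- pools above both WT pools, an order seen in neither cluster.

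In neutrophil-like cells, of which the Ccr2-/- pools held 406 and 792, a cluster with Stfa2 and S100a9 among its leading genes held 897 and 1150 CPM of Osm on day 3 and day 5, and a cluster led by Il1a and Gpr84 held 754 and 872 CPM. The WT pools held 2 to 39 cells per cluster, and their values are not compared.

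Among the other genes of the pathway, 40 were listed in 5 groups and 39 were found in the matrix. By edgeR, 2 were called in Mo-Mac-like cells, of 36 tested and against 0.595% of all genes there, and none in the other 7 cell types. Socs2, another feedback inhibitor of cytokine signalling, was higher in Ccr2-/- cells, with 26.1 and 26.8 CPM in WT against 96.2 and 82.5 CPM in Ccr2-/- skin (log2 ratio 1.80 ± 0.22, adjusted p = 0.0417). Cebpb, a transcription factor of myeloid cells, was lower, at 703 and 856 against 310 and 397 CPM (-1.10 ± 0.15, adjusted p = 0.0486). Socs2 stood at 30.9 and 49.3 CPM in WT against 245 and 214 CPM in Ccr2-/- cells of the Arg1 cluster and overlapped in the C1qa cluster (13.0 and 20.5 against 25.4 and 5.11 CPM). Cebpb was lower in both Ccr2-/- pools of both clusters. Both calls were lost with a hashtag ratio of 10 (adjusted p = 0.0534 and 0.0649), in a model without day (0.118 and 0.194), and without the WT day 5 pool (0.0789 and 0.208), the Ccr2-/- day 3 pool (0.489 for both) or the Ccr2-/- day 5 pool (0.316 and 0.317).

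By group, none of the other ligands (4 of 7 tested), other receptor chains (3 of 4), kinases and STATs (5 of 5) were called in Mo-Mac-like cells. The negative regulators and shedding proteases had 1 of 8 higher and the STAT3 target genes 1 of 16 lower, with medians of 0.18 and -0.20 on the log2 scale, beside -0.033 over all genes. In fibroblast-like cells none of 37 tested was called. The 16 STAT3 target genes had a median log2 ratio of 0.46 there, beside -0.008 over all genes, and went both ways. The largest ratios had large errors. Lcn2 stood at 2.29 ± 1.11 (SE), Hp at 2.20 ± 2.43, Saa3 at 1.87 ± 0.77 and Lrg1 at 1.78 ± 1.19. Saa3 is also a leading gene of the cluster whose share differed between the genotypes. Timp1, an inhibitor of matrix proteases, stood at 1.45 ± 0.18 (edgeR adjusted p = 0.115) and Serpina3n, a protease inhibitor, at 1.02 ± 0.19 (adjusted p = 0.13), whereas the immediate early genes Junb and Fos stood at -0.83 ± 0.13 and -0.60 ± 0.08 (adjusted p = 0.115 for both). Of the kinases and STATs, Jak2 stood at 0.83 ± 0.12 (adjusted p = 0.115) and Stat3 at -0.45 ± 0.09 (adjusted p = 0.137). All genes named here for fibroblast-like cells were chosen after their values were seen.

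The genes whose levels followed each ligand most closely over 47 sums of 14 cell types by pool are given as a description. For Il6 they were Itga2b (Pearson r = 0.75), Oaf (0.748) and Tulp3 (0.73), for Osm Gm49339 (0.895), Lilrb4a (0.894) and Plek (0.872), and for Lif the basophil cytokine gene Il4 (0.797), Chst13 (0.753) and Hgf (0.751). For Il11 they were Pi15 (0.638), Col27a1 (0.615) and Casc4 (0.597), and for Socs3 Fth1 (0.731), Cped1 (0.725) and Itga5 (0.722). The sums share 4 pools, so no p is given.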

How the data were processed

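Single-cell cDNA and hashtag libraries (TAS-Seq on BD Rhapsody) were made from pooled, hashtag-labelled skin cells. The authors trimmed the reads with Cutadapt, mapped them with Bowtie2 to mouse transcripts of GRCm38.p6 and deposited read counts per gene or hashtag and cell barcode. These are whole-number counts, not normalized and not collapsed to molecules, so amplification adds error that the counting intervals do not cover. The labels give no tool versions.

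From these counts, barcodes were assigned to a pool with at least 10 hashtag reads and a hashtag ratio of 3 to the next, and cells with over 20% mitochondrial reads or under 200 genes were dropped. The 9 hashtag columns that no label names were not used. Cells were clustered with scanpy 1.11.5 (2000 variable genes, 30 components, Leiden resolution 1) and named from marker lists. The minimum detection of 10%, the margin of 0.5 and the sub-clustering at 0.3 were set, and clusters within a cell type compared, after the data had been seen. Scrublet marked 0.909% of 8359 barcodes as doublets, 51 of them among kept cells, and these were left in. CPM of summed reads was computed per cell type and pool, with a pseudocount of 1 CPM in log2 ratios. Genotypes were compared by edgeR 4.0.16 (quasi-likelihood test, TMM, filterByExpr, day and genotype), with DESeq2 1.42.0 as an alternative, and by exact permutation of the 4 pools. The fits were also run on simulated counts with the same dispersion for every gene and no difference in cell make-up between pools. That setting is simpler than the data, so it does not show how the fits behaved on the real pools. All 9 genes were named, with 3 most similar genes for the ligands and Socs3. Pathway genes were named by the largest ratio among those called. In fibroblast-like cells, where none was called, they were named after their values were seen. The members and lists were chosen with earlier results of these data known.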

Additional observations from a re-analysis of the deposited data

Results flagged for a closer look

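For 4 genes the log2 ratio of Ccr2-/- to WT, in the cell type of highest mean level, had opposite signs on the 2 days, and the difference between the days was not tested, since each day had 1 pool per genotype. For Il6 in basophil-like cells the ratio was -0.36 on day 3 and 0.73 on day 5, a difference of 1.09, and the WT day 5 pool had 2 cells. For Il6ra in neutrophil-like cells the ratio was -0.84 on day 3 and 0.90 on day 5, a difference of 1.74, with 6 WT cells on day 5. For Lifr in blood endothelial-like cells the ratio was -0.99 and 0.17, a difference of 1.16. For Il11 in perichondrial-like cells it was -1.95 and 4.70, a difference of 6.65, and 1 cell held 92.9% of the Il11 reads of the Ccr2-/- day 5 pool.

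The hashtag library also held 14422 reads in 9 hashtag columns that no label assigns to a pool, which was 0.0276% of its 52245351 reads.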

How the results depend on the processing

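The pools had no replicates, levels rest on reads, and low genes rest on few cells. The cause of the changes listed here was not tested. Alternative values of the genotype ratio were taken for the cell type of highest level and for single fibroblast-like clusters. Of these values, 87 moved by less than the spread of the days, 19 by more, and 2 reversed. The 87 include each day taken alone, which cannot lie further from the mean of the days than that spread. Where the days differed widely, other alternatives also had much room, so 87 is no measure of stability. Osm in basophil-like cells (1.46) was 6.38 without its top cell in each pool, which left no WT day 5 Osm read, 0.39 as a mean over cells and 0.38 after thinning to 10000 reads. Lif there (1.59) was 4.60 without the top cell and 0.32 after thinning. Il6 there (0.19) was 1.08 when cells were assigned singly by markers. Il6ra in neutrophil-like cells (0.03) was 3.92 after thinning. Socs3 there (0.75) was 2.51 with single-cell assignment and 2.60 without the top cell. Il6st in pericyte or smooth muscle-like cells (-0.41) reversed to 1.20 without cells over 100000 reads and to 0.96 without the top cell, and was -0.08 as a mean over cells and -0.22 after thinning.

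Without cells over 100000 reads, basophil-like cells held 32.6% of the Il6 reads (mean over pools otherwise 9.96%) and 46.5% of the Lif reads (21.3%), fibroblast-like cells 53.2% of the Osmr reads (79.4%), blood endothelial-like cells 12.7% of the Lifr reads (7.73%) and neutrophil-like cells 11.6% of the Socs3 reads (4.03%). With single-cell assignment the Osmr share was 69.0% and the Il6st share of pericyte or smooth muscle-like cells 5.90% (1.96%). The share of cells with a read, after thinning and with at least 3 reads, was 5.17% and 5.60% for Il11 in perichondrial-like cells (12.3%), 24.7% and 25.5% for Il6ra in neutrophil-like cells (29.4%), 42.2% and 44.6% for Lifr in blood endothelial-like cells (54.3%) and 71.6% and 44.9% for Socs3 in neutrophil-like cells (60.2%). Osmr in fibroblast-like cells was 43.4% after thinning (64.4%).

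Genes called between genotypes depended on the method. DESeq2, and edgeR with no filter on low counts, called 80 and 123 in blood endothelial-like, 88 and 247 in DC-like, 1551 and 556 in fibroblast-like, 53 and 65 in lymphatic endothelial-like, 753 and 1358 in Mo-Mac-like, 25 and 66 in NK or ILC-like, 157 and 158 in perichondrial-like and 21 and 29 in T cell-like cells. Library sizes in place of TMM gave 1 in DC-like and 10 in lymphatic endothelial-like cells. A hashtag ratio of 10 gave 1 in DC-like, 2 in fibroblast-like, 6 in lymphatic endothelial-like, 6 in Mo-Mac-like, 14 in perichondrial-like and 2 in T cell-like cells. A model of genotype only gave 3 in blood endothelial-like and 0 in Mo-Mac-like cells. Leaving out 1 pool at a time gave 9 to 36 in blood endothelial-like, 0 to 3 in DC-like, 0 to 515 in fibroblast-like (515 without WT day 3), 0 to 315 in lymphatic endothelial-like (315 without WT day 3), 0 to 374 in Mo-Mac-like (374 without WT day 3, 0 without either Ccr2-/- pool), 1 to 151 in NK or ILC-like (151 without WT day 3), 1 to 24 in perichondrial-like and 0 to 40 in T cell-like cells (40 without WT day 5). In these fits the lone pool of a genotype was assumed to vary like the others.

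Of the 9 genes, DESeq2 called 3 and edgeR with no filter 1 (Il6st) in fibroblast-like cells, and each called 1 (Il6ra) in Mo-Mac-like cells. Leaving out 1 pool gave 0 to 1 in Mo-Mac-like (Il6st, without WT day 3) and 0 to 1 in T cell-like cells (Il6, without WT day 5). Leaving out 1 pool turned the sign of Il11 (-0.57 to 1.11) and Lif (-0.51 to 0.48) in fibroblast-like cells and of Il6 (-0.26 to 0.05), Lif (-2.09 to 1.12), Osm (-0.25 to 0.30) and Osmr (-0.19 to 0.70) in Mo-Mac-like cells, and library sizes gave -0.01 for Osm there. The labels give no replicate numbers, and the pools were paired only by day, which the edgeR model holds as a covariate.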
